A study of Homo sapiens with 20 samples.

Results

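The dual-specificity phosphatases and the Sprouty proteins are the brakes that cells place on their MAP kinases. Growth factor receptors switch on RAS, RAS switches on a chain of kinases that ends in ERK, and stress switches on the related kinases JNK and p38. The dual-specificity phosphatases remove the activating phosphates from these kinases, and Sprouty and SPRED proteins act further up, between the receptor and RAF. Many of these genes are transcribed in response to the kinases they restrain, so that their transcripts are often read as a record of kinase activity. Here 10 such genes of 78932 in the count table were described: the phosphatase genes DUSP1, DUSP2, DUSP4, DUSP5, DUSP6 and DUSP10, and SPRY1, SPRY2, SPRY4 and SPRED1. They were chosen by their known role as feedback genes together with their counts over the 10 groups of these libraries, so their levels and changes are given as a description, without a test.

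RNA was measured in OPM2, a line of human myeloma cells known to carry a translocation that activates the growth factor receptor gene FGFR3. The cells were kept with panobinostat at 10 nM, romidepsin at the same concentration, ricolinostat at 100 nM, or the vehicle DMSO, and inhibitor groups were taken at 2, 5 and 20 h. All 3 compounds inhibit histone deacetylases: panobinostat is a hydroxamic acid that acts on many of these enzymes, romidepsin a cyclic depsipeptide that acts mainly on class I, and ricolinostat a hydroxamic acid that prefers HDAC6. Each of the 10 groups had 2 libraries, called independent biological replicates in the labels, which gives 20 libraries of 1 cell line. The ricolinostat dose is 100 nM in the titles and the protocol but 10 nM in a treatment field of the same samples. The harvest time of the DMSO cells is not given, so time in culture cannot be told apart from the inhibitor in any contrast with DMSO.

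Total counts ran from 17264640 to 29088868 per library, and all 10 genes were among the 20957 that passed the filter on low counts. All 8 plasma cell and myeloma markers had counts in every group, while their summed level was 492.5 to 495.8 CPM (scaled to library size alone) with panobinostat at 20 h and 1115.1 to 1133.1 with romidepsin at 20 h, against 4766.6 to 4780.0 in DMSO. Markers of stromal cells summed to 40.4 to 43.0 on the same scale with panobinostat and 29.5 to 32.2 with romidepsin at 20 h, against 0 to 0.0698 in DMSO, with LUM at 0 in the panobinostat and COL1A2 at 0 in the romidepsin libraries. Markers of T and NK, myeloid, erythroid and epithelial cells summed to at most 8.10 on that scale in any library. The part of these shifts in the results below was not tested, and in bulk RNA fewer cells of one state and less RNA per cell cannot be told apart.

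DUSP1 and DUSP2 were the genes of this set with the highest gains, and their promoters are shown for that reason. Both encode nuclear phosphatases of the immediate-early type; DUSP1 acts on p38, JNK and ERK, and DUSP2 is known mainly from blood cells. DUSP1 (ENSG00000120129) lies on chromosome 5 at 172768090 to 172771195 and DUSP2 (ENSG00000158050) on chromosome 2 at 96143166 to 96145440, both on the minus strand of GRCh38 in GENCODE 29. The 250 bases before each start, from the RefSeq promoter table of GRCh38.p14, are chr5:172771196-172771445 and chr2:96145441-96145690 on the minus strand, written 5′ to 3′ with motif matches in capitals.
DUSP1: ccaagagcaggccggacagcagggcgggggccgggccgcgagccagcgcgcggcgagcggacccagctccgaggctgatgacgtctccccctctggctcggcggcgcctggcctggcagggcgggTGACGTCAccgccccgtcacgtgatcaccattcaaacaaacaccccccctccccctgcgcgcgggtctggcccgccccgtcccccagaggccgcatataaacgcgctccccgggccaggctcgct
DUSP2: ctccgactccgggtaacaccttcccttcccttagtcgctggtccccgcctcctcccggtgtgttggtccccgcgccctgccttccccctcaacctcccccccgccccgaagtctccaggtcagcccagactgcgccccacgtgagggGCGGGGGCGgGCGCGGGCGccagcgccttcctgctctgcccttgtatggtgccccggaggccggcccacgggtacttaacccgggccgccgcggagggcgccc
In DUSP1 the capitals mark the cyclic AMP response element TGACGTCA, which starts 125 bases before the start and is its own reverse complement. In DUSP2 they mark the EGR motif GCGNGGGCG, which starts 103 and 93 bases before the start without overlap. Over windows from 250 bases before to 50 after the start, TGACGTCA was present in 1.85% and GCGNGGGCG, on either strand, in 9.43% of 35116 RefSeq promoters. GC content was 73.3% for DUSP1 and 75.0% for DUSP2, against a median of 58.7%.

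Of the 10 genes, 8 had a promoter in that table, with 12 sequences in all; DUSP4 and DUSP5 did not. The EGR motif also matched 1 of the SPRY1 promoters once, 1 of the SPRY2 promoters at 2 places and the SPRY4 promoter once. The AP-1 motif TGANTCA, the ETS motif CGGAAGT and the CArG box, searched on both strands, matched none of the 12 windows. They were present in 7.71%, 6.83% and 1.29% of all promoters, in that order.

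Levels of the 10 genes are CPM after TMM scaling of the libraries. In DMSO the phosphatase transcripts were dominated by DUSP5, which encodes a nuclear phosphatase specific for ERK. Per kilobase of exon its level was 95.3 CPM, above 20.0 for DUSP4, 17.2 for DUSP6, 13.6 for DUSP2, 5.88 for DUSP10 and 5.8 for DUSP1. Among the upstream brakes, SPRY1 stood at 15.3 CPM per kb, SPRED1 at 2.40, SPRY2 at 0.448 and SPRY4 at 0.183. SPRY2 and SPRY4 were thus measured near the lower end of the table: their counts ran from 17 to 168 and from 25 to 134 over the 20 libraries. The lowest count of any of the other 8 genes was 136, for DUSP2.

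The main feature of DUSP1 and DUSP2 was a late and large gain shared by panobinostat and romidepsin. DUSP1 had 18.1 and 15.6 CPM with panobinostat at 2 h, 26.6 and 26.4 at 5 h and 130.3 and 130.3 at 20 h, against 10.8 and 12.6 in DMSO. With panobinostat every library was above both DMSO libraries at each time, with log2 differences of 0.51 ± 0.11, 1.17 ± 0.11 and 3.47 ± 0.10 (SE of the fit of all 20 libraries, n = 2 libraries per group, as throughout). This SE borrows spread from other genes and is not the spread of a gene's own 2 libraries, which can be wider. With romidepsin DUSP1 had 7.45 and 8.74 CPM at 2 h, 9.55 and 6.63 at 5 h and 182.1 and 201.2 at 20 h, against the same DMSO values. These libraries lay below DMSO at the first 2 times and far above it at 20 h, the log2 differences being -0.54 ± 0.12, -0.52 ± 0.12 and 4.03 ± 0.09. Between 5 and 20 h of romidepsin the level differed 23.4-fold. Ricolinostat gave 8.22 and 8.33 CPM at 2 h, 10.0 and 13.1 at 5 h and 13.3 and 12.7 at 20 h, with log2 differences from DMSO of -0.51 ± 0.12, -0.04 ± 0.12 and 0.14 ± 0.11. Its 5 h libraries overlapped DMSO.

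DUSP2 differed from DUSP1 in that it was below DMSO at 2 and 5 h with every inhibitor. It had 17.5 and 13.5 CPM with panobinostat at 2 h, 17.5 and 18.4 at 5 h and 206.9 and 219.0 at 20 h, against 26.8 and 25.6 in DMSO. Only the 20 h libraries of panobinostat were above DMSO, by 8.13-fold, while the earlier ones were lower by 1.71- and 1.45-fold. With romidepsin DUSP2 had 10.3 and 10.7 CPM at 2 h, 6.74 and 6.31 at 5 h and 279.0 and 267.1 at 20 h. The 5 h libraries held the lowest and the 20 h libraries the highest DUSP2 levels among all 10 groups, 41.7-fold apart. With ricolinostat it had 8.65 and 8.97 CPM at 2 h, 11.6 and 10.1 at 5 h and 16.7 and 17.9 at 20 h. All 6 ricolinostat libraries were below DMSO, by log2 -1.57 ± 0.10, -1.27 ± 0.09 and -0.60 ± 0.08, and the later the time, the smaller the gap.

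DUSP10 encodes a phosphatase that prefers p38 and JNK to ERK, and it lies on chromosome 1 at 221701424 to 221742176. It had 26.2 and 28.2 CPM with panobinostat at 2 h, 38.1 and 35.6 at 5 h and 30.8 and 31.3 at 20 h, against 18.3 and 16.0 in DMSO. Panobinostat libraries were above DMSO throughout and highest at 5 h (log2 1.10 ± 0.10), although without DMSO replicate 2 that difference was 0.97. With romidepsin DUSP10 had 10.0 and 11.5 CPM at 2 h, 13.7 and 14.0 at 5 h and 82.3 and 79.0 at 20 h. As for DUSP1, these libraries lay below DMSO early (-0.66 ± 0.11 and -0.31 ± 0.11) and above it at 20 h (2.24 ± 0.09). With ricolinostat it was lower at 2 and 5 h (-0.49 ± 0.11 and -0.65 ± 0.11) and overlapped DMSO at 20 h (0.12 ± 0.10).

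**Figure D1:**
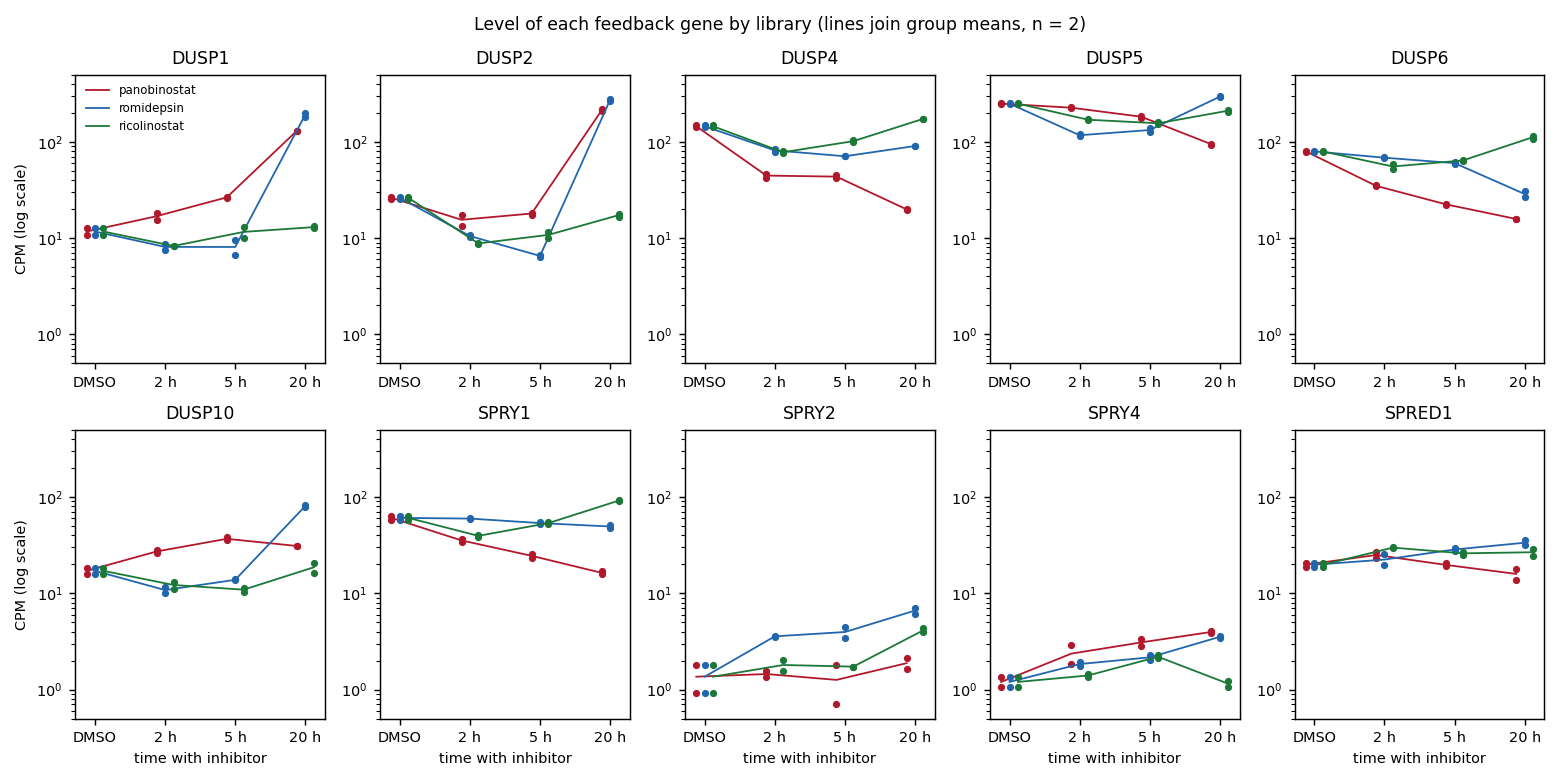
Level of each of the 10 genes in CPM (log axis) in DMSO and after 2, 5 and 20 h of panobinostat, romidepsin or ricolinostat; points are libraries, offset sideways by inhibitor, and lines join the means of 2 libraries. DUSP1 and DUSP2 reach 130.3 to 279.0 CPM at 20 h with panobinostat and romidepsin only, whereas DUSP4, DUSP6 and SPRY1 are at 15.7 to 20.1 CPM with panobinostat at 20 h.

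DUSP4, DUSP6 and SPRY1 were lower than in DMSO with panobinostat from 2 h on. DUSP6 encodes the cytoplasmic phosphatase specific for ERK and is a widely used readout of ERK activity; DUSP4 encodes a nuclear phosphatase close to DUSP1. DUSP6 (ENSG00000139318, chromosome 12, 89347232 to 89353271) had 34.5 and 35.2 CPM with panobinostat at 2 h, 22.8 and 22.0 at 5 h and 15.8 and 15.8 at 20 h, against 79.3 and 79.7 in DMSO. The 3 panobinostat groups did not overlap each other or DMSO, and the difference widened with time, at log2 -1.19 ± 0.07, -1.83 ± 0.07 and -2.33 ± 0.07. With romidepsin it had 68.0 and 68.9 CPM at 2 h, 61.1 and 59.1 at 5 h and 26.8 and 30.5 at 20 h. Romidepsin libraries were thus close to DMSO at first and 2.77-fold lower at 20 h. Ricolinostat gave 58.9 and 51.9 CPM at 2 h, 65.2 and 63.1 at 5 h and 115.7 and 108.1 at 20 h. DUSP6 was therefore below DMSO at 2 and 5 h of ricolinostat and 1.41-fold above it at 20 h.

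DUSP4 (ENSG00000120875, chromosome 8, 29333064 to 29350668) had 46.6 and 42.6 CPM with panobinostat at 2 h, 42.0 and 45.0 at 5 h and 20.1 and 19.8 at 20 h, against 148.6 and 141.4 in DMSO. Most of the early gap was present by 2 h, since the 2 and 5 h libraries overlapped, and at 20 h the level was 7.27-fold below DMSO. Romidepsin gave 78.3 and 84.7 CPM at 2 h, 70.5 and 71.1 at 5 h and 91.3 and 89.5 at 20 h, log2 differences of -0.83 ± 0.05, -1.03 ± 0.06 and -0.68 ± 0.05. Ricolinostat gave 79.7 and 76.3 CPM at 2 h, 103.6 and 99.5 at 5 h and 172.7 and 174.3 at 20 h. Its 2 h libraries were 1.86-fold below DMSO and its 20 h libraries 1.20-fold above, the only group in which DUSP4 exceeded DMSO.

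SPRY1 encodes a Sprouty protein that dampens signals of growth factor receptors such as those of the FGF family, and lies on chromosome 4 at 123396795 to 123403760. It had 34.0 and 36.9 CPM with panobinostat at 2 h, 23.2 and 25.8 at 5 h and 15.7 and 17.0 at 20 h, against 63.0 and 58.4 in DMSO. The differences were -0.77 ± 0.07, -1.30 ± 0.08 and -1.89 ± 0.08 on the log2 scale, with no overlap. With romidepsin SPRY1 had 60.9 and 58.5 CPM at 2 h, 55.2 and 52.1 at 5 h and 48.2 and 50.6 at 20 h. These libraries overlapped DMSO at 2 h and were at most 1.23-fold lower afterwards, and scaled by library size alone they overlapped DMSO at 5 and 20 h too (log2 -0.05 and -0.06). With ricolinostat it had 40.6 and 38.4 CPM at 2 h, 54.8 and 52.3 at 5 h and 90.3 and 92.9 at 20 h, so that it was below DMSO at 2 and 5 h and 1.51-fold above it at 20 h.

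DUSP5 (ENSG00000138166, chromosome 10, 110497838 to 110511544) separated panobinostat from romidepsin. It had 229.2 and 223.3 CPM with panobinostat at 2 h, 185.6 and 178.7 at 5 h and 92.5 and 96.0 at 20 h, against 248.0 and 250.4 in DMSO. The level was lower at each successive time, down to 2.64-fold below DMSO. With romidepsin it had 114.1 and 120.1 CPM at 2 h, 137.6 and 127.7 at 5 h and 291.6 and 297.3 at 20 h. The low point of romidepsin was at 2 h, 2.13-fold below DMSO, and at 20 h the level was 1.18-fold above. Ricolinostat gave 168.7 and 170.7 CPM at 2 h, 152.6 and 159.0 at 5 h and 216.1 and 205.3 at 20 h, all below DMSO, by at most 1.60-fold.

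SPRY2 and SPRY4, which like SPRY1 restrain receptor signalling to RAS and RAF, had low counts; SPRY2 was highest with romidepsin and SPRY4 with panobinostat. SPRY2 (chromosome 13, 80335976 to 80340951) had 3.64 and 3.50 CPM with romidepsin at 2 h, 3.43 and 4.50 at 5 h and 7.09 and 6.12 at 20 h, against 0.932 and 1.79 in DMSO, where the counts were 22 and 48. All 6 romidepsin libraries were above DMSO, by log2 1.37 ± 0.30, 1.52 ± 0.30 and 2.26 ± 0.29, but without DMSO replicate 1 the 2 h difference was 0.98. Of the other groups, the libraries of ricolinostat at 20 h, with 4.32 and 3.94 CPM, were also above DMSO (1.58 ± 0.30; 2.14 without DMSO replicate 2). Panobinostat libraries overlapped DMSO at each time, with 0.701 to 2.11 CPM. Scaled by library size alone, those of 20 h were above DMSO (log2 0.74).

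SPRY4 (chromosome 5, 142310427 to 142326455) had 2.88 and 1.84 CPM with panobinostat at 2 h, 2.85 and 3.34 at 5 h and 3.91 and 4.03 at 20 h, against 1.06 and 1.34 in DMSO. All 6 libraries were above DMSO and the log2 differences were 0.95 ± 0.31, 1.36 ± 0.31 and 1.72 ± 0.30. The 2 h value was 1.12 without DMSO replicate 2 and 1.18 without panobinostat 2 h replicate 2. With romidepsin the differences were 0.61 ± 0.32, 0.84 ± 0.32 and 1.55 ± 0.30, and with ricolinostat 0.21 ± 0.33, 0.86 ± 0.32 and -0.07 ± 0.35, the last with overlapping libraries. Without DMSO replicate 2 the 5 h values were 1.02 for romidepsin and 1.01 for ricolinostat.

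SPRED1, which brings the RAS inhibitor neurofibromin to the membrane, varied least of the 10 genes. It lies on chromosome 15 at 38252326 to 38357249, and its group means ran from 15.9 to 33.5 CPM. It had 13.9 and 17.8 CPM with panobinostat at 20 h and 31.6 and 35.4 with romidepsin at 20 h, against 20.7 and 18.9 in DMSO. The romidepsin libraries were above and the panobinostat libraries below DMSO, by log2 0.76 ± 0.10 and -0.30 ± 0.11. When only library size was used for scaling, the panobinostat difference was 0.00 and the libraries overlapped DMSO.

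**Figure D2:**
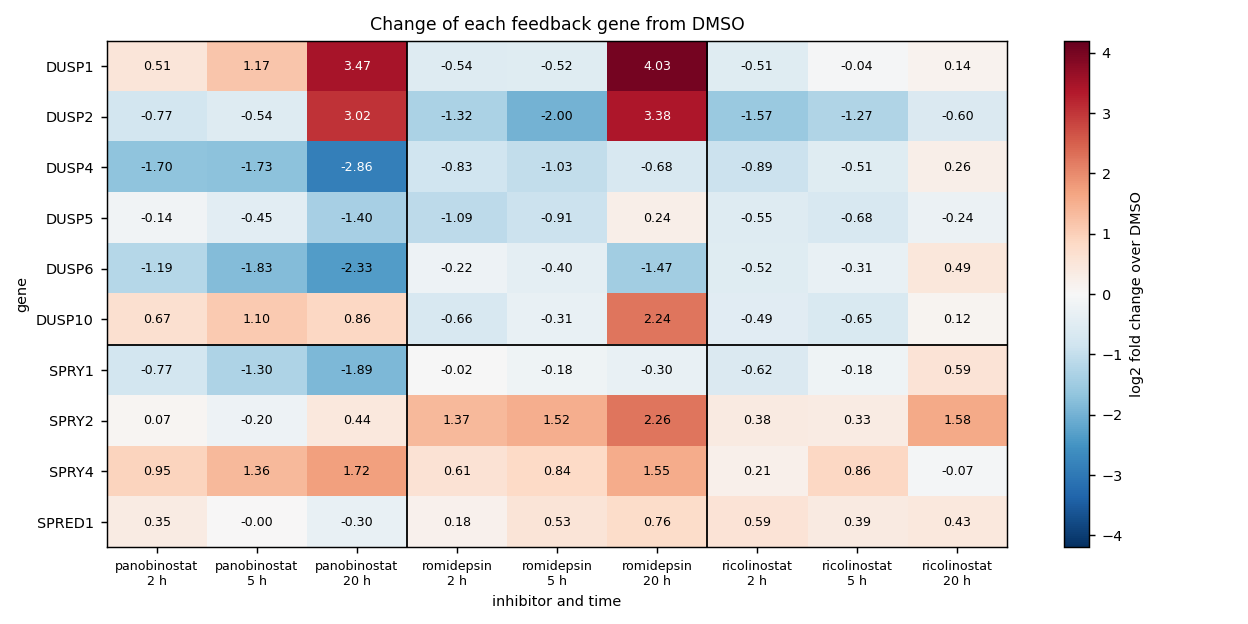
Log2 fold change of each gene (rows) over DMSO for the 9 inhibitor and time groups (columns), from the fit of all 20 libraries; red is above and blue below DMSO, and the black lines separate inhibitors and the phosphatases from the Sprouty and SPRED genes. The deepest red is at 20 h of romidepsin (DUSP1, 4.03) and panobinostat (DUSP1, 3.47), and the deepest blue in the DUSP4 row at 20 h of panobinostat (-2.86).

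Counted over the set, a difference of at least 2-fold without overlap of libraries is set beside the share of all 20957 tested genes that met the same rule. Because the genes were chosen with these values known, nothing is read from the counts. With panobinostat at 2 h, 0 of 10 genes were higher and 2 lower, beside 10.1% and 6.88% of all genes. At 5 h 3 were higher and 3 lower, beside 22.1% and 10.8%, and at 20 h 3 were higher and 4 lower, beside 33.1% and 19.2%. With romidepsin 1 was higher and 2 were lower at 2 h, beside 4.54% and 2.54%, and again 1 and 2 at 5 h, beside 9.92% and 2.11%. At 20 h of romidepsin 5 were higher and 1 lower, beside 30.8% and 15.1%. With ricolinostat 0 were higher and 1, DUSP2, was lower at 2 h and at 5 h, beside 5.61% and 6.06% at 2 h and 7.33% and 5.04% at 5 h. At 20 h of ricolinostat 1, SPRY2, was higher and 0 were lower, beside 10.3% and 2.34%. Scaling by library size alone moved the median of all genes at 20 h to 0.556 with panobinostat and 0.457 with romidepsin, against 0.252 and 0.222 under TMM scaling. It took DUSP4 out of the genes lower with romidepsin at 5 h (-0.91) and brought DUSP10 to 1.16 with panobinostat at 20 h.

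Panobinostat and romidepsin were given at the same dose and are set side by side, again as a description. The same dose need not have the same effect. Over all genes, 11865 differed from DMSO with panobinostat and 6198 with romidepsin at 5 h (edgeR, adjusted p under 0.05). At 20 h these were 15329 and 14366. The part of this in the gaps below was not tested. At 5 h romidepsin libraries were below panobinostat libraries for DUSP1 by 3.24-fold, for DUSP2 by 2.76-fold and for DUSP10 by 2.65-fold. In the same libraries DUSP6 was 2.69-fold and SPRY1 2.18-fold higher with romidepsin. At 20 h the order had turned for the first group: DUSP1 was 1.47-fold, DUSP2 1.28-fold and DUSP10 2.6-fold higher with romidepsin than with panobinostat. DUSP4, DUSP5 and SPRY1 were 4.53-, 3.12- and 3.02-fold higher with romidepsin at 20 h. No library of one inhibitor overlapped the other in these 11 comparisons.

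The makeup of the phosphatase transcripts changed accordingly. Summed per kilobase of exon, the 6 phosphatase genes gave 223.7 and 231.5 CPM with panobinostat at 20 h and 392.7 and 397.6 with romidepsin at 20 h, against 158.0 and 157.4 in DMSO. DUSP2 held 48.4% of that sum with panobinostat and 35.8% with romidepsin at 20 h, against 8.61% in DMSO, and DUSP1 held 28.4% and 24.0%, against 3.68%. DUSP5 held 15.8% and 28.5%, against 60.4% in DMSO. DUSP6 held 1.5% and 1.57% of it, against 10.9%. At 2 h of romidepsin the sum was 81.5 and 86.3 CPM per kb, the lowest mean of the 10 groups, with DUSP5 still at 53.4%. The 4 Sprouty and SPRED genes summed to 6.93 and 7.60 CPM per kb with panobinostat, 18.9 and 19.6 with romidepsin and 27.9 and 27.9 with ricolinostat at 20 h, against 18.9 and 17.8 in DMSO.

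**Figure D3:**
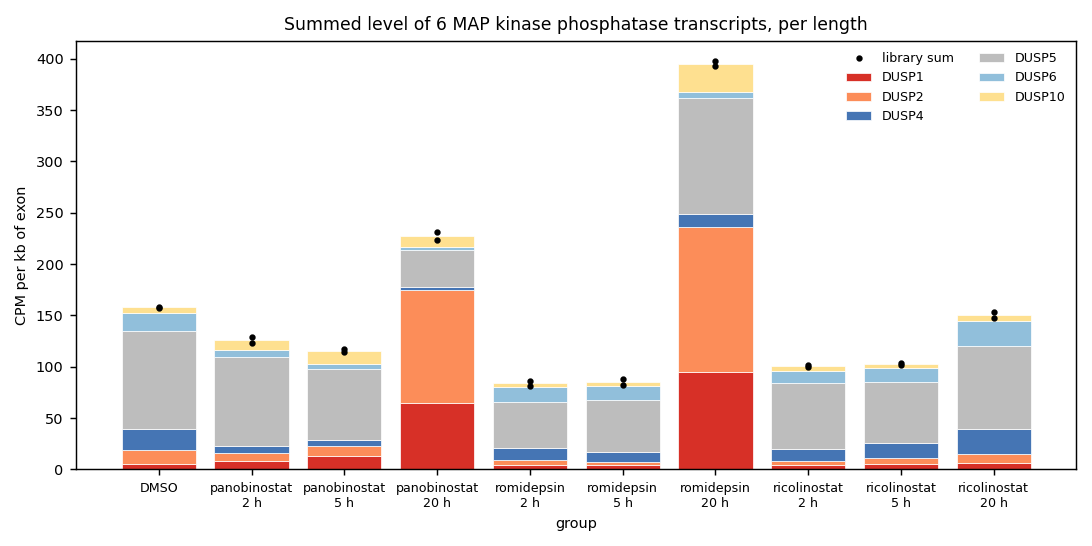
Summed level of the 6 phosphatase transcripts in CPM per kb of exon, by group, with stacked bars for the mean of 2 libraries and black points for each library's sum. At 20 h of panobinostat and romidepsin DUSP1 and DUSP2 fill most of the bar, while DUSP5 holds 60.4% of it in DMSO.

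Across the 10 group means of log2 CPM, which share the DMSO group and the time points, some genes had like patterns, described here without a test. DUSP1 was most like DUSP2 (Pearson r = 0.96) and DUSP10 (0.88), and DUSP4 most like SPRY1 (0.95) and DUSP6 (0.88). DUSP6 and SPRY1 had r = 0.92. Between these groups of 3 r was negative, from -0.33 (DUSP4 and DUSP10) to -0.76 (DUSP1 and DUSP6). DUSP6 and SPRY4 had r = -0.91, whereas DUSP5, SPRY2 and SPRED1 had r between -0.15 and 0.24 with DUSP1. Outside the set, among 6570 protein-coding genes that reached 5 CPM in a group and spanned at least 2-fold between groups, the nearest patterns were those of SPANXN3 (0.987) and ID2 (0.983) for DUSP1, and LRCH4 (0.987) and BROX (0.974) for DUSP2. For DUSP6 they were ADO (0.990) and PLEKHG1 (0.989), for DUSP4 BCOR (0.976) and CENPF (0.966), and for SPRY1 APOL2 (0.974) and JKAMP (0.969). DUSP10 was nearest to HMOX1 (0.974) and ENDOD1 (0.966), and SPRY4 to GRHL1 (0.972) and FGD6 (0.969). DUSP5 (TSC22D3, 0.948; DACT1, 0.860), SPRY2 (TRIM69, 0.923; RYR2, 0.902) and SPRED1 (TEP1, 0.866; RNF103, 0.847) had no pattern as close.

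**Figure D4:**
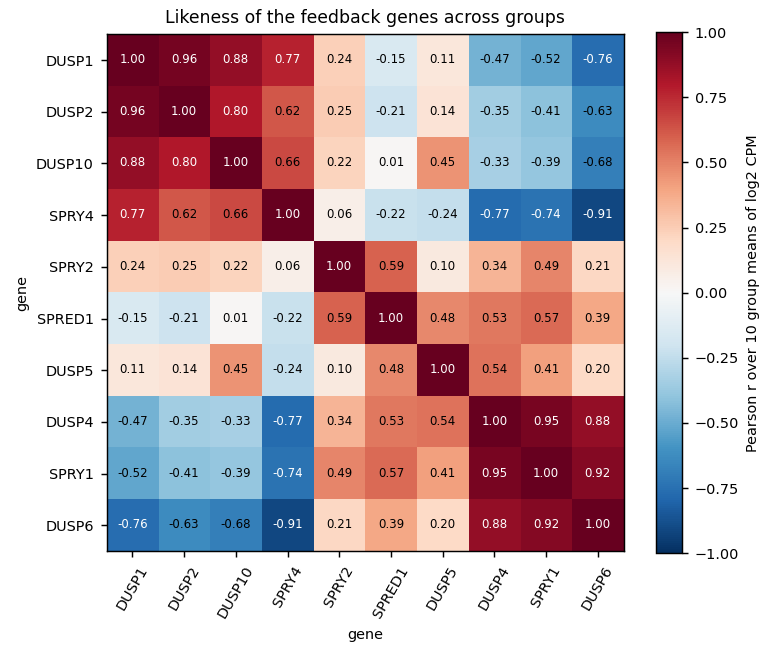
Pearson r between the 10 genes over the 10 group means of log2 CPM, with genes on both axes; red is positive and blue negative. DUSP1, DUSP2 and DUSP10 form 1 red square (0.80 to 0.96) and DUSP4, SPRY1 and DUSP6 another (0.88 to 0.95).

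The genes around these brakes were tested with the edgeR quasi-likelihood test, adjusted over all 20957 genes, in 6 lists with 127 tested members that did not include the 10 genes. The lists were chosen with earlier results of these data known, so their shares are a description and no list was tested as a set. With panobinostat 61 list genes (48.0%) rose and 26 (20.5%) fell at 2 h, beside 20.8% and 18.1% of all genes. At 5 h 70 (55.1%) rose and 34 (26.8%) fell, beside 30.7% and 25.9%, and at 20 h 72 (56.7%) rose and 49 (38.6%) fell, beside 40.8% and 32.3%. With romidepsin 7 rose and 15 fell at 2 h, beside 3.55% and 4.62%, and 30 rose and 24 fell at 5 h, beside 13.0% and 16.5%. At 20 h of romidepsin 77 rose and 34 fell, beside 38.6% and 29.9%. With ricolinostat 49 rose and 24 fell at 2 h, beside 16.9% and 14.5%, 53 and 26 at 5 h, beside 18.8% and 15.3%, and 35 and 23 at 20 h, beside 14.7% and 16.4%. By the 2-fold rule used for the set, 20 list genes were higher and 6 lower with panobinostat at 2 h, beside 10.1% and 6.88%. At 20 h these were 49 and 25 with panobinostat, beside 33.1% and 19.2%, and 47 and 15 with romidepsin, beside 30.8% and 15.1%. With ricolinostat they were 9 and 5 at 2 h, beside 5.61% and 6.06%, and 10 and 6 at 5 h, beside 7.33% and 5.04%. At 20 h of ricolinostat they were 13 and 4, beside 10.3% and 2.34%. Not tested for low counts were PTPN5, SPRY3, RASAL1, IL17RD, FGFR2, MET, EGFR, KIT and LIF.

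Among 15 other MAP kinase phosphatase genes, 8 (53.3%) rose and 7 (46.7%) fell at 20 h both with panobinostat (median log2 0.80, against 0.25 over all genes) and with romidepsin (0.52, against 0.22). Of all genes 40.8% rose and 32.3% fell with panobinostat, and 38.6% rose and 29.9% fell with romidepsin, at that time. PTPN7, a phosphatase of ERK and p38 in blood cells, was at 4.0 ± 0.00504 CPM with panobinostat at 20 h and 17.3 ± 3.08 with romidepsin, against 389.0 ± 2.29 in DMSO (SD, n = 2). It fell by log2 6.60 ± 0.18 and 4.50 ± 0.11 (edgeR, adjusted p = 4.2e-15 and 4.8e-14), and with panobinostat it was already at -1.07 ± 0.08 at 2 h and -3.80 ± 0.11 at 5 h (edgeR, adjusted p = 1.3e-07 and 3.1e-13). DUSP8, a phosphatase of JNK and p38, rose by 2.89 ± 0.17 and 2.70 ± 0.17 at 20 h (edgeR, adjusted p = 1e-31 and 4.1e-29). DUSP7, the closest relative of DUSP6, fell by 1.44 ± 0.08 and 1.77 ± 0.08 on the log2 scale (edgeR, adjusted p = 4.9e-33 and 3e-38), the direction DUSP6 also had there. Ricolinostat parted these genes. With it DUSP7 was at log2 0.18 ± 0.07 at 2 h and -0.48 ± 0.07 at 20 h (edgeR, adjusted p = 0.041 and 4.8e-08). DUSP6 was below DMSO at the first and above it at the second of these times.

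Of 20 other brakes on receptors and RAS, 8 rose and 10 fell with panobinostat at 20 h, beside 40.8% and 32.3% of all genes, and the median was -0.24, against 0.25 over all genes. With romidepsin at 20 h 10 rose and 7 fell, beside 38.6% and 29.9%, with a median of 0.29, against 0.22. RASAL3, a RAS GTPase-activating protein of blood cells, fell with panobinostat by a log2 value of -3.16 ± 0.09, at 7.94 ± 0.00476 CPM against 70.8 ± 0.47 in DMSO (SD, n = 2; edgeR, adjusted p = 6.8e-60). ERRFI1, an inhibitor of EGF receptors, rose by 3.60 ± 0.19 with panobinostat (edgeR, adjusted p = 2.1e-33), and CBLB, a ubiquitin ligase, by 3.38 ± 0.12 with romidepsin (edgeR, adjusted p = 1.3e-48). SPRED2, the relative of SPRED1, rose by 0.66 ± 0.08 with ricolinostat at 20 h (edgeR, adjusted p = 4.4e-11). Upstream, FGFR3 was at 259.2 ± 5.97 CPM with panobinostat, 321.4 ± 2.01 with romidepsin and 2789.1 ± 31.2 with ricolinostat at 20 h, against 3534.9 ± 23.0 in DMSO (SD, n = 2). It fell in all 9 contrasts, by log2 0.34 ± 0.03 to 3.77 ± 0.03 (edgeR, adjusted p at most 2.2e-15), including 2, 5 and 20 h of ricolinostat, where DUSP6 and SPRY1 were below, below and above DMSO.

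Of the 24 RAS to ERK cascade genes, panobinostat at 20 h gave 16 (66.7%) that rose and 8 (33.3%) that fell, beside 40.8% and 32.3% of all genes, and 18 (75.0%) rose and 5 (20.8%) fell with romidepsin, beside 38.6% and 29.9%. The medians were 0.35 and 0.68, against 0.25 and 0.22 over all genes. MRAS, a RAS relative that activates RAF, rose by 5.99 ± 0.22 and 5.73 ± 0.22 (edgeR, adjusted p = 1.5e-58 and 3.8e-56). Of 24 p38 and JNK cascade genes, 13 (54.2%) rose and 10 (41.7%) fell with panobinostat and 14 (58.3%) rose and 6 (25.0%) fell with romidepsin, with medians of 0.56 and 0.60. These stand beside the same shares and medians of all genes. MAP2K6, a kinase of p38, rose by 3.38 ± 0.17 and 2.87 ± 0.17 (edgeR, adjusted p = 9.3e-38 and 1.2e-31).

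Many of the genes listed as transcription targets of ERK are, like DUSP6 and SPRY1, often read as its output. The list also holds the transcription factor genes ELK1, ELK3 and SRF. Most of its genes rose at 20 h of panobinostat and romidepsin, where DUSP6 was below DMSO. Of 24 tested, 18 (75.0%) rose and 5 (20.8%) fell with panobinostat (median 2.30) and 16 (66.7%) rose and 2 (8.3%) fell with romidepsin (median 2.53) at 20 h, against the same shares and medians of all genes, and 9 rose and 3 fell with ricolinostat (median 0.21). IER3, an immediate-early gene, had 16 counts in the DMSO libraries together and rose by 7.62 ± 0.39 with panobinostat and 7.81 ± 0.39 with romidepsin (edgeR, adjusted p = 1.9e-59 and 2.1e-60). FOS was at 243.0 ± 0.983 CPM with panobinostat, against 13.7 ± 1.28 in DMSO (SD, n = 2), a log2 rise of 4.14 ± 0.17 (edgeR, adjusted p = 2.9e-10). With panobinostat FOS had already risen at 2 h, by 2.72 ± 0.17 (edgeR, adjusted p = 7.2e-08), when DUSP6 was 2.28-fold and DUSP4 3.25-fold below DMSO. With ricolinostat ETV5, an ETS factor induced by FGF signalling, rose by 1.35 ± 0.09 at 2 h and 1.60 ± 0.08 at 5 h (edgeR, adjusted p = 7.9e-27 and 4.3e-32), times at which DUSP6 and SPRY1 were below DMSO. Of the 24 list genes, 11 rose, 1 fell and 12 did not pass at 2 h of ricolinostat, beside 16.9% and 14.5% of all genes. At 5 h 12 rose, 2 fell and 10 did not pass, beside 18.8% and 15.3%. Kinase activity and protein were not measured.

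**Figure D5:**
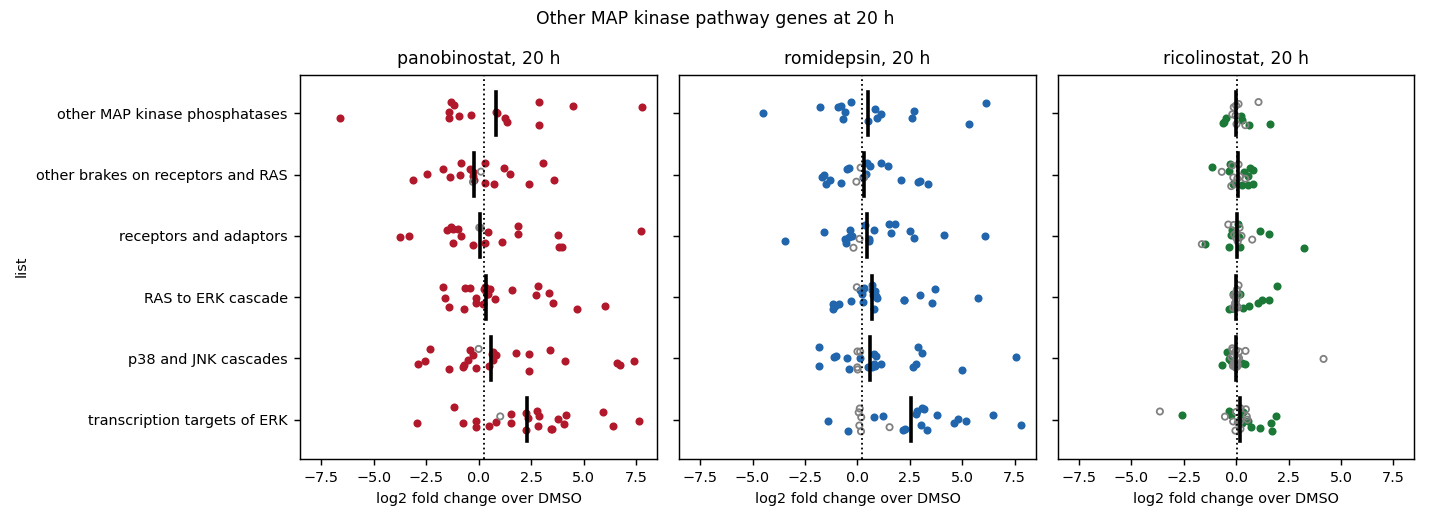
Log2 fold change over DMSO at 20 h (x axis) of the tested members of 6 MAP kinase pathway lists (rows) with panobinostat, romidepsin and ricolinostat; filled points passed the edgeR test (adjusted p under 0.05), open points did not, black bars are list medians and the dotted line is the median of all genes. The transcription targets of ERK have medians of 2.30 and 2.53 with panobinostat and romidepsin and 0.21 with ricolinostat.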

How the data were processed

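Poly(A)-selected, strand-specific, paired-end libraries with reads of 100 bases were made, per the labels' protocols. The authors deposited raw counts per Ensembl gene, for which the submitters' processing notes name HISAT2, SAMtools, featureCounts and the build GRCh38. Not given in the sources used here are tool versions, annotation release, strand setting and the unit counted (reads or pairs).

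Of 78932 identifiers, 42179 had a symbol in the name table and 57356 were found in GENCODE 29, which gave positions and exon lengths. After filterByExpr (edgeR 4.0.16, R 4.3.3, minimum count 10) 20957 genes remained. TMM-scaled counts of the 10 groups entered 1 robust quasi-likelihood fit with a biological coefficient of variation of 0.0419. Levels are TMM-scaled CPM from edgeR, except that marker sums were scaled by library size alone, and changes are log2 fold changes with SE. That SE comes from the fit of all 20 libraries, with spread shared between genes, and not from a gene's own 2 libraries. Adjusted p-values are from the two-sided quasi-likelihood F test adjusted by Benjamini-Hochberg per contrast (threshold 0.05), and are given only for genes outside the set. A gene that passed is said to have risen or fallen. Likeness used log2(CPM + 0.1). The 10 genes, the lists and the rule for named genes were chosen with earlier results of these data known. Named list genes are up to 3 per list and contrast, by size of change among those that passed, did not overlap between libraries and reached 5 CPM in a group. FGFR3 and the list genes whose values are given at several times were named by this rule at each time given. The exception is DUSP7 with ricolinostat, which is given for its comparison with DUSP6.

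All 9 contrasts use the same 2 DMSO libraries. The p-values measure the spread between these libraries of 1 cell line. Over all tested genes together, same-numbered libraries had no deviation in common: over 45 pairs of groups the correlation ran from -0.0248 to 0.0347. A pairing that touched few genes could not be seen in this way, since every gene had equal weight. Alternatives were DESeq2 1.42.0 as test and its size factors, library size only, no filter, the 2 compared groups alone, a replicate block, and leaving out each library. The result of 1 marker list is not reported here.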

Additional observations from a re-analysis of the deposited data

Results flagged for a closer look

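Some genes of the set lay on opposite sides of DMSO with 2 inhibitors at the same time, with no library overlapping DMSO. The values are differences of the log2 changes, the first-named inhibitor minus the second, and their difference was not tested; ricolinostat was given at another dose. For panobinostat minus romidepsin the difference was 1.05 for DUSP1 and 1.33 for DUSP10 at 2 h, and 1.69 for DUSP1 and 1.41 for DUSP10 at 5 h. At 20 h it was -1.64 for DUSP5 and -1.07 for SPRED1. For panobinostat minus ricolinostat it was 1.02 for DUSP1 and 1.16 for DUSP10 at 2 h, and 1.76 for DUSP10 at 5 h. At 20 h the same pair gave 3.62 for DUSP2, -3.12 for DUSP4, -2.82 for DUSP6, -2.48 for SPRY1 and -0.74 for SPRED1. For romidepsin minus ricolinostat at 20 h the difference was 3.98 for DUSP2, -0.94 for DUSP4, 0.48 for DUSP5, -1.96 for DUSP6 and -0.89 for SPRY1. Scaled by library size alone, the libraries of SPRED1 with panobinostat at 20 h (log2 0.00) and of SPRY1 with romidepsin at 20 h (-0.06) overlapped DMSO, so the values that rest on them, -1.07, -0.74 and -0.89, no longer had the genes on opposite sides without overlap.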

How the results depend on the processing

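Of 180 recomputed counts of the 10 genes, 173 stayed within 1.5 times, and of 180 counts of other pathway genes 177 did. Log2 changes of single genes shifted as well. Scaling by library size alone shifted DUSP6 and DUSP2 with panobinostat at 20 h by 0.31, to -2.02 and 3.33. Scaling by library size alone gave 1 gene of the set lower with romidepsin at 5 h (2 under TMM), 12 pathway genes higher with romidepsin at 2 h (7 under TMM) and 15 lower with romidepsin at 5 h (24 under TMM). Leaving out 1 library at a time, genes of the set at least 2-fold higher numbered 0 to 1 with panobinostat at 2 h, 0 to 1 with romidepsin at 2 h, 1 to 2 with romidepsin at 5 h and 0 to 1 with ricolinostat at 5 h, and those lower with ricolinostat at 2 h numbered 1 to 2. The genes entering or leaving these counts were SPRY4, SPRY2 and, with ricolinostat at 2 h, DUSP4 (-1.01 without ricolinostat 2 h replicate 1). DUSP10 also left the genes higher with panobinostat at 5 h when DMSO replicate 2 was left out (0.97). Pathway genes higher with romidepsin at 2 h numbered 4 (without DMSO replicate 1) to 6. The largest shift of a single gene was for SPRY2 with panobinostat at 5 h, at -1.0 without replicate 1 against -0.20. With the replicate block no count of the set moved (5 genes higher and 1 lower with romidepsin at 20 h), and 15207 genes were called with panobinostat at 20 h, against 15329. Depth limits SPRY2 and SPRY4, and n = 2 limits every value.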
